A study of Mus musculus with 6 samples.

Results

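The serpins are a superfamily of proteins, most of which inhibit serine proteases, and many of them are made by hepatocytes and secreted into plasma. Members here are the genes of the array's value table whose single platform symbol starts with Serpin, pseudogene symbols left out. They number 53 genes of 22180 with a single-gene probe set, and 20 of them lay in the upper 50% of mean signal, the range that was tested. The arrays measured liver RNA of 6 male C57BL/6J mice, 3 wild-type (WT) and 3 in which Gpr146, an orphan G protein-coupled receptor, was knocked out in the whole body (KO). All were littermates aged 24 weeks on chow, fasted for 16 hours and refed for 6 hours, each animal on its own array. Receptor loss was thus not limited to the liver, and the deleted part of the gene was not given in the labels.

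An inhibitory serpin offers an exposed loop to its target protease. The protease cuts the loop, stays bound to it, and is carried to the far side of the serpin as the loop folds in, which disables both proteins. Clade A holds alpha-1-antitrypsin, alpha-1-antichymotrypsin and hormone carriers. Clades C, D, F and G hold plasma inhibitors of clotting, fibrinolysis and complement. Clade B members act inside cells, and clade H is a collagen chaperone. Mice carry several copies of alpha-1-antitrypsin (Serpina1a to Serpina1e) and of alpha-1-antichymotrypsin (the Serpina3 group), where humans have a single gene for each.

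The 5 alpha-1-antitrypsin copies are shown first by the stretch upstream of their starts, since Serpina1e differed between mice more than its near-identical copies. RefSeq promoter windows (GRCm38.p6) were found for 47 of the 53 genes and 16 of the 20 tested. The lines below, all from the minus strand, run 5′ to 3′. Capitals mark GTTAAT, a stretch that all 5 share and that serves to align them.
Serpina1a: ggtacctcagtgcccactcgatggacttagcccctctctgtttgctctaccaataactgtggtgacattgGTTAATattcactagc
Serpina1b: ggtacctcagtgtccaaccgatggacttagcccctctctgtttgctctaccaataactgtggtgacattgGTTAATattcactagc
Serpina1c: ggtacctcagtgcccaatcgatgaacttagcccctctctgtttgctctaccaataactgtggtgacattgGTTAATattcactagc
Serpina1d: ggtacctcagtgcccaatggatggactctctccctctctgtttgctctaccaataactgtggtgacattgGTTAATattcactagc
Serpina1e: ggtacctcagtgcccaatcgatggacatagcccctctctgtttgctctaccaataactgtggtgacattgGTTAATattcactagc
The stretches lie at chr12:103863625-103863710, chr12:103738200-103738285, chr12:103904962-103905047, chr12:103773634-103773719 and chr12:103956960-103957045, in that order.

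Of 86 bases, 76 were the same in all 5 stretches, and pairs shared 91.9% to 97.7%. Serpina1e differed from Serpina1a and from Serpina1c at 2 bases each. GTTAAT began 21, 26, 27 and 16 bases before the annotated start of Serpina1a, Serpina1b, Serpina1c and Serpina1d, and 78 bases before that of Serpina1e. Serpina11, the reference's next gene after Serpina1e, has a different upstream stretch (chr12:103989990-103990078, minus strand), with TTCNNNGAA, the pattern that STAT factors recognise, in capitals.
Serpina11: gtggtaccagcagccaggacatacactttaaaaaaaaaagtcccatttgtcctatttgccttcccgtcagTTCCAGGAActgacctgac
Searched in the 250 bases before a start, TTCNNNGAA, which reads the same on both strands, was in 7.02% of all 32851 windows. It was in 6 of the 47 members with a window and in 1 of the 16 tested, Serpina11, the latter count being near that share. A member was counted if any of its windows matched, whereas the shares given here are of single windows. Other patterns were searched on either strand. GTTAAT was in 6 of the 16 (6.43% of windows), the 5 copies above and Serpina7. TTGCNNAA was in 5 (9.56%), and GAANNTTC and TTCNNGAA were in 0 (6.69% and 7.17%). Such a match is letters in a window, not measured binding.

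Per-mouse values are listed in the order of mice 1, 2 and 3 of a genotype. The knocked-out gene, Gpr146, read 5.96, 5.56 and 5.65 in WT and 4.61, 4.28 and 3.87 in KO on the log2 scale, all KO below all WT. Its KO minus WT difference was -1.47 ± 0.19 (SE), with an adjusted p of 0.0702 in limma, just over the threshold. Leaving out WT mouse 3 brought this p to 0.0269, median centring to 0.0204 and a trended, robust variance model to 0.0272. The other alternatives left limma's adjusted p over the threshold, from 0.0546 with array weights to 0.270 without WT mouse 1. It was 0.0979 after quantile normalization, 0.220 without WT mouse 2, 0.193 without KO mouse 2 and 0.136 without KO mouse 3. Array medians ran from 2.67 to 2.73, and the hepatocyte gene Alb was at 11.92 ± 0.02 in WT and 11.91 ± 0.01 in KO (SD, n = 3 each). All differences below are KO minus WT in log2 units, with limma's two-sided p adjusted by Benjamini-Hochberg over the 11090 genes tested. Nothing in the labels marks a batch.

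No Serpin gene differed between genotypes at an adjusted p under 0.05 in limma, 0 of 20 against 0.0361% of all genes tested, and their adjusted p ran from 0.346 to 0.976. At an unadjusted p under 0.05 were 3: Serpina11, higher in KO, and Serpinb1a and Serpinh1, lower. That is 1 of 20 higher against 6.16% of all genes, and 2 of 20 lower against 2.98%. KO lay wholly above WT in 1 tested member, Serpinf2, against 9.63% of genes, and wholly below in 1, Serpinh1, against 5.16%. The median difference of the 20 was 0.05, that of all genes tested 0.03, and 14 were positive and 6 negative, against 6402 positive and 4688 negative of all genes. The members' median was 0.0176 after quantile normalization and ran from -0.00718 (without WT mouse 1) to 0.0802 (without KO mouse 1) with a mouse left out, at 0.000722 without KO mouse 3. After quantile normalization 1 of the 20, Serpinb9, turned from positive to negative. Over all genes tested, 683 were higher and 330 lower at an unadjusted p under 0.05, against 494 and 584 after quantile normalization and 508 and 355 after median centring. With 20 members these are counts of 1 or 2 genes, and a p over the threshold does not show that levels were equal.

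**Figure D1:**
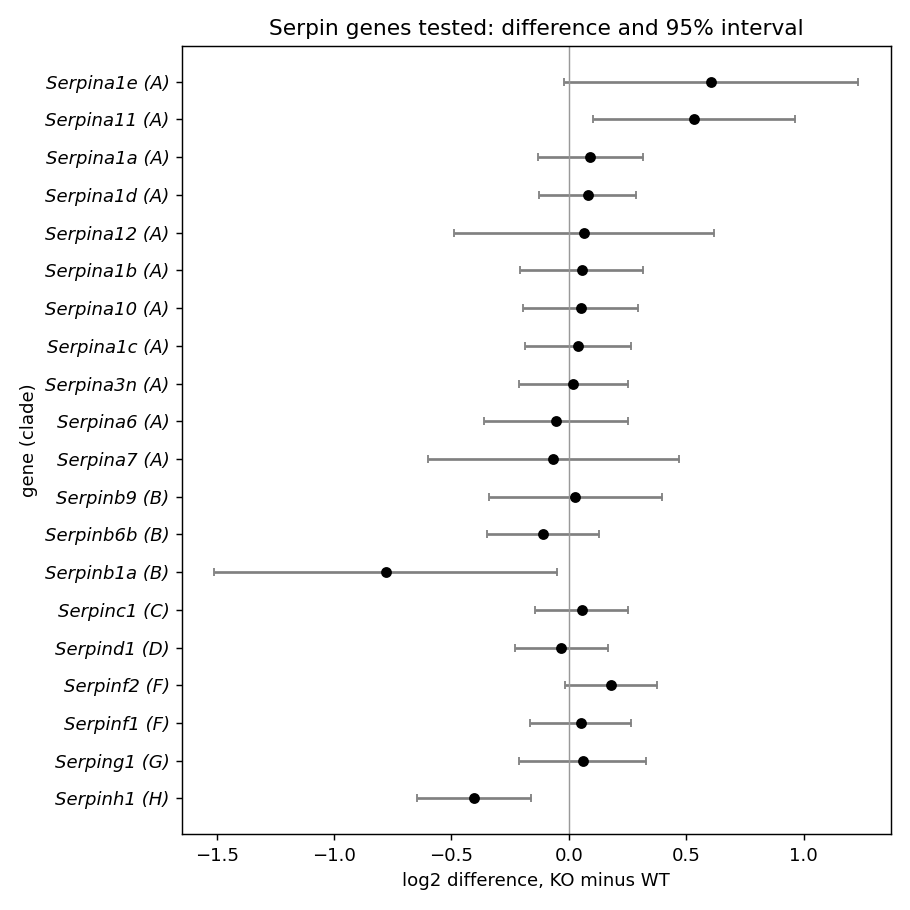
Log2 difference, KO minus WT, of the 20 Serpin genes tested (points), with 95% intervals from limma (bars) and the clade in brackets; n = 3 mice per group. Most points lie near 0 with intervals across it, and the intervals of Serpina11, Serpinb1a and Serpinh1 do not reach it.

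Alpha-1-antitrypsin, the plasma inhibitor of neutrophil elastase, was represented by 5 tested copies, all with a positive difference, small in 4 of them. Serpina1c measured 11.36, 11.31 and 11.33 in WT and 11.27, 11.32 and 11.52 in KO. Serpina1d measured 10.95, 10.86 and 11.01 in WT and 10.98, 10.998 and 11.08 in KO. The groups overlapped in both, with differences of 0.04 (95% interval -0.19 to 0.26) and 0.08 (-0.13 to 0.29). Serpina1a measured 7.73, 7.93 and 7.86 in WT and 7.83, 7.98 and 7.98 in KO, a difference of 0.09 (-0.13 to 0.32). Serpina1b measured 4.11, 4.01 and 3.78 in WT and 3.90, 4.11 and 4.05 in KO, a difference of 0.06 (-0.21 to 0.32). The groups overlapped in these as well, and no interval of the 4 went below -0.21 or above 0.32. Adjusted p-values of these 4 lay between 0.817 and 0.936 in limma.

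Serpina1e was the exception in size. It measured 9.68, 8.86 and 9.65 in WT and 9.46, 10.23 and 10.33 in KO. WT mouse 2 was the lowest, KO mice 2 and 3 were the highest, and KO mouse 1 sat among the WT animals. The difference was 0.61 ± 0.28 (SE), a 1.52-fold higher signal in KO, with an interval from -0.02 to 1.23 (limma adjusted p = 0.561). Leaving out WT mouse 2 gave 0.34. The spread within groups was 0.47 (pooled SD), larger than in 98.5% of genes tested, where Serpina1a, Serpina1b, Serpina1c and Serpina1d were at 0.09, 0.14, 0.10 and 0.07. Serpina1f, a more distant copy, was below the signal filter in every mouse (2.00 to 2.33). Which transcript stretches the probes cover is not given here, and the copies are nearly identical, so signal of 1 copy may include RNA of another. Levels of different probe sets are not comparable, so the 5 are not ranked.

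The Serpina3 group, related to alpha-1-antichymotrypsin, the inhibitor of cathepsin G, had 5 members in the table and 1 above the filter. Serpina3n, the acute phase member, measured 10.26, 10.41 and 10.51 in WT and 10.39, 10.34 and 10.50 in KO. The groups overlapped almost fully, and the difference was 0.02 (95% interval -0.21 to 0.25, limma adjusted p = 0.975). The other 4 were below the filter in all animals. Serpina3a ran from 2.26 to 2.35, Serpina3b from 1.78 to 2.22, Serpina3i from 1.72 to 2.02 and Serpina3j from 1.71 to 1.91. Their differences, between -0.05 and -0.0024, carry no test. Serpina3c, Serpina3f, Serpina3g, Serpina3k and Serpina3m were not analysed here.

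**Figure D2:**
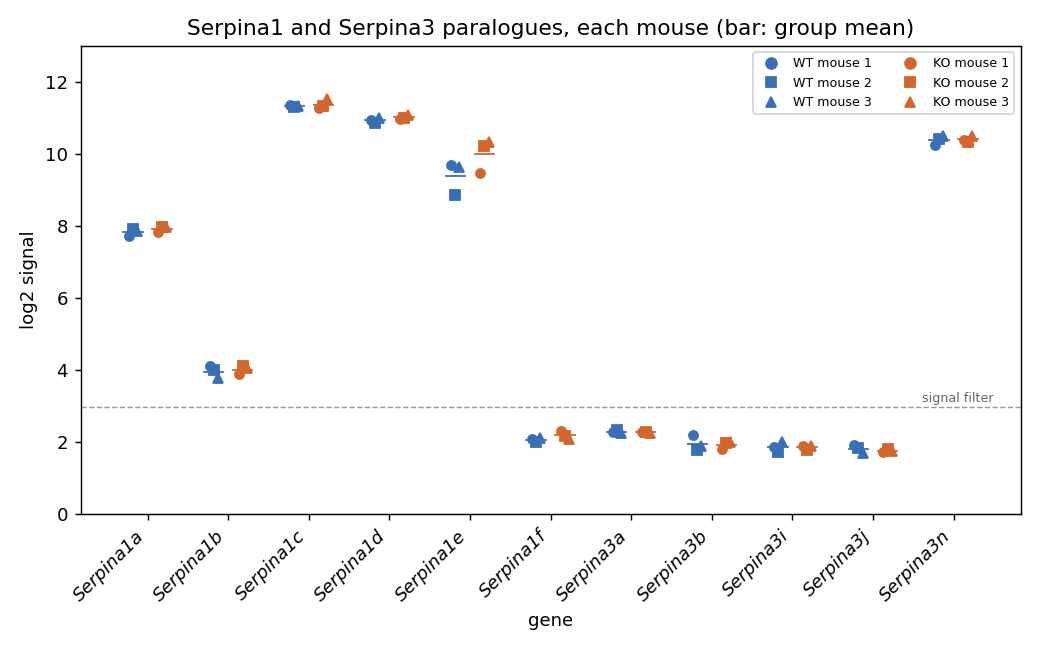
Log2 signal of each Serpina1 and Serpina3 paralogue (x axis) in each mouse (points; WT blue, KO orange) with the group means (bars); the dashed line is the signal filter at 2.99. Serpina1e is the paralogue whose mice spread widely, from 8.86 to 10.33; heights of different genes are not comparable.

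Serpina11, a liver-secreted serpin with no settled target, lies beside Serpina1e in the reference with 0 genes between them. It measured 5.86, 5.54 and 6.13 in WT and 6.08, 6.34 and 6.71 in KO. As with Serpina1e, WT mouse 2 was lowest and KO mouse 3 highest, and here only WT mouse 3 reached into the KO range. The difference was 0.53 ± 0.19 (SE), 1.45-fold (unadjusted p = 0.0210 and adjusted p = 0.442 in limma), or 0.38 without WT mouse 2 and 0.37 without KO mouse 3. Serpina12 (vaspin) follows in the cluster after Serpina9, which was below the filter. Serpina12 measured 2.99, 3.16 and 3.69 in WT and 3.33, 2.91 and 3.80 in KO, with the groups overlapping and a difference of 0.06 (-0.49 to 0.62).

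**Figure D3:**
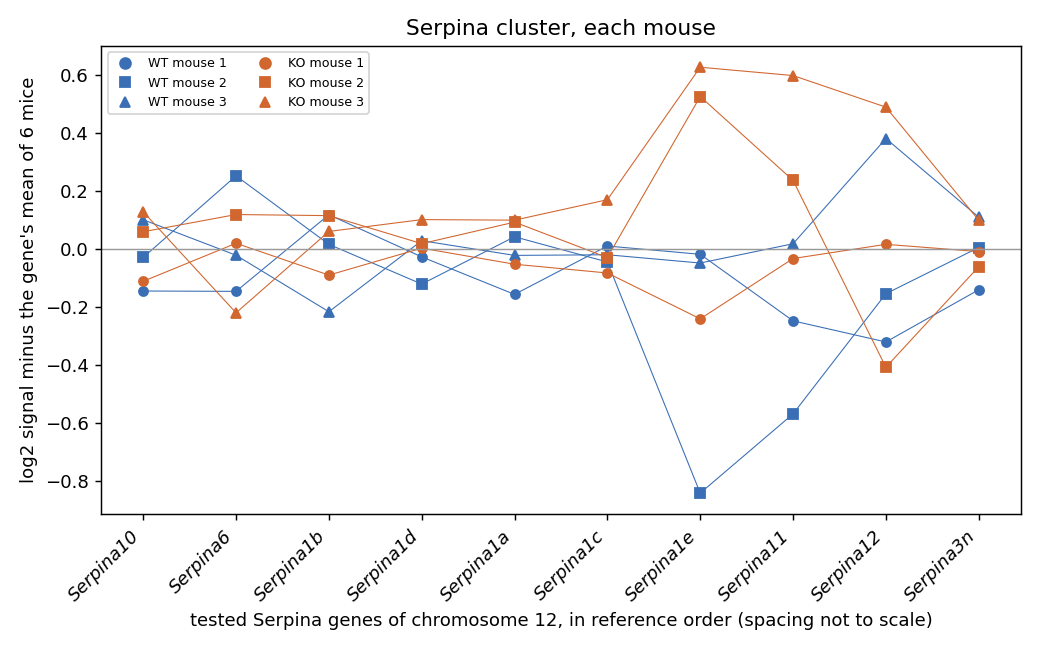
Log2 signal of each mouse minus the gene's mean over 6 mice (y axis) for the 10 tested Serpina genes of chromosome 12 in reference order. Mice stay within about 0.3 of the mean at most genes and spread apart at Serpina1e, Serpina11 and Serpina12.

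Male-biased liver genes, which depend on pulsed growth hormone acting through STAT5, had the same animals at their extremes. A list of 14 such genes held 13 tested members, Serpina1e and Serpina12 among them. Over the 11 that are no serpins, the mean level per mouse, set against the mean of all 6, was -0.07, -1.11 and 0.36 in WT and -0.36, 0.34 and 0.84 in KO. WT mouse 2 was lowest and KO mouse 3 highest, as for Serpina1e and Serpina11. In absolute terms those means ran from 7.13 to 8.61 in WT and from 7.89 to 9.08 in KO. The 13 include Serpina1e and Serpina12, both positive, and genes measured in the same 6 mice are not independent counts. Of the 13, 12 had a positive difference, against 6402 of 11090 genes. At an unadjusted p under 0.05, 1 was higher, against 6.16% of genes. This was Elovl3, a fatty acid elongase, at 0.70 ± 0.26 (SE). C6, a complement component, was at 0.71 ± 0.32. Without WT mouse 2, Elovl3 was at 0.45 and C6 at 0.37, and without KO mouse 3 C6 was at 0.47. The part of sex-biased expression in the Serpina1e and Serpina11 values was not tested.

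The other tested clade A genes are hormone carriers and a clotting regulator, and their groups overlapped. Serpina6, the corticosteroid carrier, measured 10.05, 10.45 and 10.18 in WT and 10.22, 10.32 and 9.98 in KO, a difference of -0.06 (95% interval -0.36 to 0.25). Serpina7, the thyroxine carrier, measured 7.80, 8.29 and 7.78 in WT and 8.31, 7.37 and 7.98 in KO, a difference of -0.07 (-0.60 to 0.47). Serpina10, which inhibits factors Xa and XIa, measured 8.66, 8.78 and 8.91 in WT and 8.70, 8.87 and 8.94 in KO, a difference of 0.05 (-0.20 to 0.30). Serpina7 was among the most variable members, with a pooled SD of 0.39, and its lowest and highest values both fell in KO. Serpina5, Serpina9 and Serpina16, the remaining clade A members, had means between 1.93 and 2.26, under the filter.

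The plasma inhibitors of clotting and complement overlapped between the groups. Serpinc1, antithrombin, measured 9.97, 10.08 and 9.97 in WT and 10.04, 10.06 and 10.09 in KO, a difference of 0.06 (-0.14 to 0.25). Serpind1, heparin cofactor II, measured 10.12, 10.19 and 10.09 in WT and 10.11, 10.08 and 10.12 in KO, a difference of -0.03 (-0.23 to 0.17). Their pooled SDs, 0.05 and 0.04, were smaller than in all but 3.00% and 2.14% of genes. Serping1, the C1 inhibitor, was at 10.13 ± 0.13 in WT and 10.19 ± 0.17 in KO (SD, n = 3 each), a difference of 0.06 (-0.21 to 0.33), with a pooled SD of 0.15, larger than in 57.2% of genes.

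Serpinf2, alpha-2-antiplasmin, was the 1 tested member in which every KO mouse exceeded every WT mouse. It measured 9.84, 9.92 and 9.87 in WT and 10.09, 10.04 and 10.03 in KO. The difference was 0.18 ± 0.09 (SE), 1.13-fold (unadjusted p = 0.066 and adjusted p = 0.571 in limma), and the exact permutation p was 0.1, the smallest that 3 against 3 allows. With each mouse left out in turn it stayed between 0.16 and 0.20. Serpinf1 (PEDF), an anti-angiogenic factor that does not inhibit proteases, measured 6.54, 6.60 and 6.67 in WT and 6.55, 6.69 and 6.73 in KO, a difference of 0.05 (-0.16 to 0.27).

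Serpinh1 had the smallest p of the family. It encodes HSP47, an endoplasmic reticulum chaperone of collagen that is induced by heat shock factor and is known best from stellate cells and fibroblasts. It measured 4.75, 4.64 and 4.96 in WT and 4.43, 4.31 and 4.40 in KO, so all KO lay below all WT. The difference was -0.40 ± 0.11 (SE), a 1.32-fold higher signal in WT (unadjusted p = 0.00477 and adjusted p = 0.346 in limma, exact permutation p = 0.1). Leaving out single mice gave -0.47 (WT mouse 2) to -0.32 (WT mouse 3).

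Other heat shock genes were uneven. Of 14 listed, 12 were tested, 8 of them negative and 4 positive, and 2 of the 12 were at an unadjusted p under 0.05, both lower (2.98% of all genes). The median of the list was -0.09. Dnajb1, a cofactor of the HSP70 chaperones, measured 7.70, 7.98 and 6.40 in WT and 5.45, 5.72 and 5.87 in KO. The difference was -1.68 ± 0.35 (SE, limma adjusted p = 0.277), or -2.17 without WT mouse 3 (limma adjusted p = 0.000639). It was -1.37 without WT mouse 2 (limma adjusted p = 0.427) and -1.51 without WT mouse 1 (0.510). With a KO mouse left out the adjusted p was also over the threshold. Hspa8, the constitutive HSP70, was at -0.25 ± 0.09, and at -0.48 as the mean of its 4 probe sets. The list mean, set against all 6 mice, was -0.11, 0.12 and 0.38 in WT and -0.25, -0.14 and -0.0012 in KO. WT mouse 3 was highest in it, as in Serpinh1, but lowest of the WT mice in Dnajb1. The part of the heat shock genes in the Serpinh1 values was not tested.

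Collagens and their modifying enzymes, the clients of HSP47 and its partners, had 10 of 12 members tested, 7 negative and 3 positive, with a median of -0.09 and 0 at an unadjusted p under 0.05. Col3a1 was at -0.31 ± 0.16 (SE), ranging to -0.18 without KO mouse 3 and -0.48 without KO mouse 1, and Col1a2 at -0.26 ± 0.14, or -0.12 without WT mouse 2. Stellate cell markers, 9 of 9 tested, had a median difference of 0.0029 and mean levels from 5.50 to 5.97 in WT and 5.76 to 5.91 in KO. Their groups overlapped, with 1 of the 9 markers (Hgf, at -0.34) wholly below WT in KO, against 5.16% of all genes, and 1 (Rgs5, at 0.33) wholly above, against 9.63%. In whole liver, fewer cells of a type and less RNA per cell cannot be told apart.

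Clade B, the intracellular serpins, had 25 members and 3 above the filter. Serpinb1a, an inhibitor of neutrophil granule proteases, measured 3.38, 4.08 and 3.31 in WT and 3.46, 2.82 and 2.14 in KO. WT mouse 2 was highest and KO mouse 3 lowest, the reverse of Serpina1e, and KO mouse 1 lay inside the WT range. The difference was -0.78 ± 0.32 (SE), a 1.72-fold higher signal in WT (unadjusted p = 0.0392 and adjusted p = 0.515 in limma). Its size dropped to -0.44 when KO mouse 3 was left out and to -0.40 with a pseudocount of 8 on the linear scale. The signal is weak: KO mice 2 and 3, and the KO mean of 2.81, were under 2.99, the filter on the mean. Serpinb1a thus entered the tested range through its WT values.

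Neutrophils are known for high Serpinb1a. Of the neutrophil and monocyte markers 0 of 8 were above the filter, and Serpinb1a itself, with a mean of 3.20, was little above it. The part of neutrophils in the Serpinb1a values was not tested. Female-biased liver genes differed among the mice in the order of Serpinb1a at its ends: the mean of 4 tested members, set against all 6 mice, was 0.45, 1.44 and -0.71 in WT and 0.46, -0.81 and -0.83 in KO. Acot3, a peroxisomal thioesterase, was at -1.13 ± 0.39 (SE) and Fmo2, a flavin monooxygenase, at -0.45 ± 0.25. Fmo2 was at -0.22 without WT mouse 2 and likewise without KO mouse 3. In the list WT mouse 2 was highest and KO mouse 3 lowest, as in Serpinb1a, and WT mouse 3 was low in the list but not in the gene. The part of the female-biased genes in the Serpinb1a values was not tested either.

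**Figure D4:**
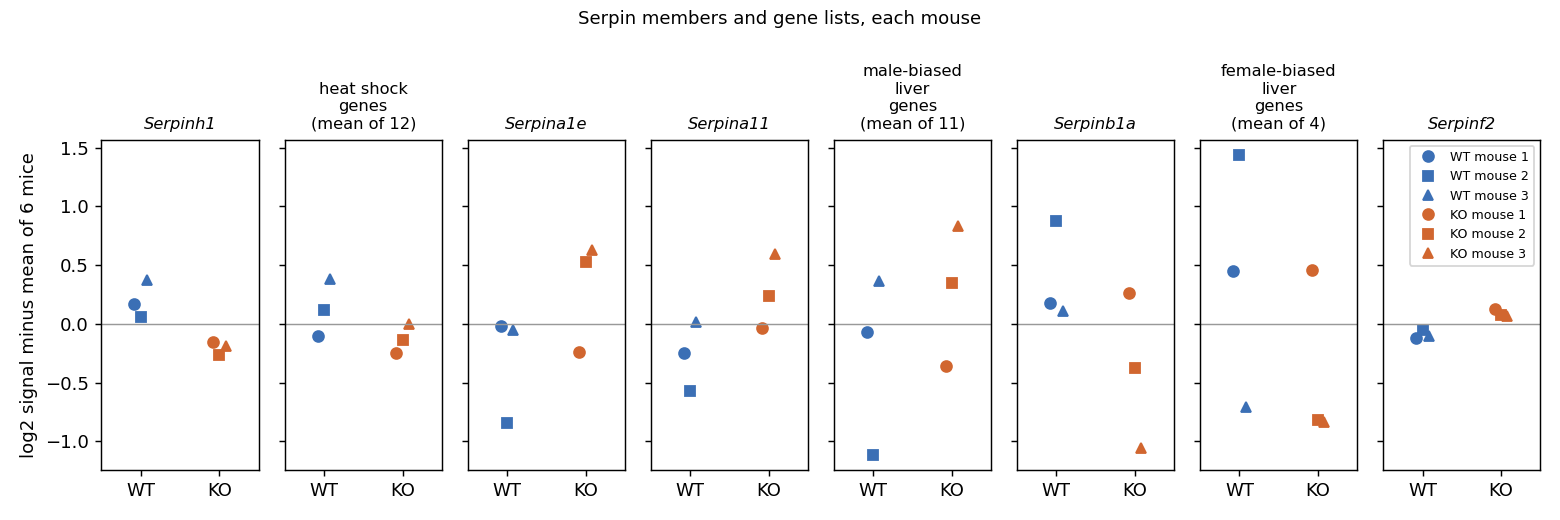
Log2 signal minus the mean of 6 mice (y axis) for 5 Serpin genes and for the mean of 3 gene lists without serpins, each mouse a point, WT at left and KO at right. Serpinh1 and Serpinf2 separate the groups; WT mouse 2 and KO mouse 3 lie at opposite ends in Serpina1e, Serpina11, Serpinb1a and both sex-biased lists.

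The other clade B genes above the filter overlapped between groups. Serpinb9, which inhibits granzyme B, measured 3.91, 4.60 and 4.17 in WT and 4.25, 4.21 and 4.30 in KO, a difference of 0.03 (95% interval -0.34 to 0.40). Serpinb6b measured 3.26, 3.29 and 3.54 in WT and 3.26, 3.20 and 3.31 in KO, a difference of -0.11 (-0.35 to 0.13). The 22 clade B genes below the filter had means from 1.20 to 2.84 and differences from -0.22 to 0.19. Serpinb3c, from the group that inhibits cysteine proteases, was the 1 member among them at an unadjusted p under 0.05 when no filter was used (unadjusted p = 0.0485 and adjusted p = 0.663 in limma). It measured 1.29, 1.26 and 1.33 in WT and 1.14, 1.12 and 1.08 in KO, near the bottom of the array's range, and its difference of -0.18 was -0.04 with the pseudocount. Serpine3 of clade E, at 1.86, and Serpini1 and Serpini2 of clade I, at 1.62 and 1.77, were below the filter as well. Serpinb9b had 2 probe sets, at 0.19 and 0.11. The keratinocyte markers, for tissue where many clade B genes are active, had 1 of 7 members tested.

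Proteases that serpins act on were measured in the same livers. Over all genes tested, 6402 of 11090 differences were positive, with a median of 0.03, or -0.0099 after quantile normalization. Of 20 proteases listed, 14 were tested, 12 positive and 2 negative, with a median of 0.08. At an unadjusted p under 0.05, 1 of the 14 was higher (6.16% of all genes). This was F11, the clotting protease that Serpina10 and Serpinc1 inhibit. It measured 7.33, 6.82 and 7.18 in WT and 7.51, 7.56 and 7.49 in KO, all KO above all WT as in 9.63% of genes, a difference of 0.41 ± 0.13 (SE; limma adjusted p = 0.416), or 0.26 without WT mouse 2. Masp1 was at 0.13, or 0.0175 without KO mouse 3, and F10 at 0.10, or 0.05 without WT mouse 2. In the plasminogen system 6 of 9 were tested, with a median of 0.0057, Plg at 0.08 (0.03 without KO mouse 3) and Thbd, thrombomodulin, at -0.34 ± 0.14 (-0.18 with a pseudocount of 8).

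Partners and clearance factors of serpins had 11 of 12 tested, 9 positive, with a median of 0.08. The background for this list and the next was again 6402 of 11090 genes positive, with a median of 0.03. Il6ra, the interleukin-6 receptor, measured 6.71, 7.02 and 7.33 in WT and 7.67, 7.49 and 7.58 in KO. All KO lay above all WT in Il6ra and in Vtn, 2 of the 11, against 9.63% of all genes. The difference of Il6ra was 0.56 ± 0.15 (SE; limma adjusted p = 0.347). It was the 1 of the 11 at an unadjusted p under 0.05, higher (6.16% of all genes). Vtn, vitronectin, and Surf4, a cargo receptor, were at 0.16 and 0.18. Genes for folding, export and degradation of secreted glycoproteins, the route on which alpha-1-antitrypsin leaves the cell, had 11 of 12 tested, 10 positive, with a median of 0.14 and 1 at an unadjusted p under 0.05, Uggt1, higher (6.16% of all genes). Uggt1, the glycoprotein folding sensor, was at 0.29 ± 0.12, Pdia3 at 0.27 ± 0.13 and Calr at 0.19 ± 0.09. Without KO mouse 3, Uggt1 was at 0.18 and Vtn at 0.11.

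STAT3 and acute phase genes, the programme that includes Serpina3n, had 21 of 22 tested, 10 positive and 11 negative, with a median of -0.00086. Il1r1, the interleukin-1 receptor, was at 0.91 ± 0.21 (SE), Orm3, an orosomucoid, at -0.69 ± 0.20 and Cebpd, a transcription factor of the response, at -0.37 ± 0.15. Cebpd was at -0.19 with a pseudocount of 8. Its KO values (2.81, 2.85 and 2.80) were all under 2.99, the filter on the mean, so Cebpd entered the tested range through its WT values. The groups did not overlap in Il1r1, Orm3 and Cebpd, 3 of the 21, 1 above and 2 below, against 9.63% and 5.16% of all genes. For these genes limma's adjusted p ran from 0.301 to 0.509. Among liver transcription factors 8 of 10 were tested, with a median of 0.0066; Onecut1, a factor of hepatocyte genes, measured 6.31, 7.21 and 6.68 in WT and 5.18, 5.99 and 5.92 in KO, a difference of -1.04 ± 0.26 (adjusted p = 0.336). TGF-beta signalling, 8 of 10 tested, had a median of -0.02. No gene of any list passed the threshold (0 in limma).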

How the data were processed

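Each liver's RNA was hybridised to 1 whole-transcript Affymetrix array, per the labels' protocols. The authors deposited log2 values for 41345 probe sets; their summary and normalization were not given in the sources used here. That values are log2 follows from maxima of 12.1 to 12.2, above 11.1, the natural log of the highest 16-bit reading. Symbols came from the platform annotation, updated through GRCm38.p6 Entrez numbers; of 57 Serpin probe sets, 2 with several symbols and 1 of a pseudogene were left out. The probe set of highest mean stood for a gene, and genes with a mean of at least 2.99 were tested. limma 3.58.1 in R 4.3.3 (lmFit, eBayes, no covariate) compared KO with WT over all 11090 genes tested, with a threshold of 0.05; the code was tested on simulated data. The number of arrays limits precision (median SE 0.11). Mice, not technical repeats, are the replicates.

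Members, gene lists, naming rule (all tested Serpin genes, all Serpina1 and Serpina3 copies, and up to 3 genes of smallest p per list) and motifs were chosen with earlier results of these data known. Same-numbered mice were not paired, since their deviations correlated at 0.06, -0.19 and 0.15.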

Additional observations from a re-analysis of the deposited data

How the results depend on the processing

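Serpin genes past the threshold numbered 0 in all 15 alternatives: no filter, the upper 25% of signal, mean of probe sets, quantile normalization, median centring, a pseudocount of 8, trend and robust options, array weights, the replicate block and each mouse left out. Members at an unadjusted p under 0.05 went from 3 of 20 to 5 of 53 with no filter. Of all 22180 genes, 990 were then higher and 670 lower. With a mouse left out the members ran from 1 to 4 of 20 (1 without WT mouse 2 or KO mouse 3, where Serpinh1 alone was left). All genes at that p were 769 higher and 257 lower of 11090 without WT mouse 2, and 482 and 288 without KO mouse 3. Without WT mouse 1, with 4 members, they were 523 and 369. With trend and robust options the members were Serpina11, Serpinf2 and Serpinh1. Genes called over all genes went from 4 to 0 in the upper 25%, 1 with the pseudocount and 1 with the replicate block, and ran from 1 to 51 with a mouse left out (51 without WT mouse 3). The block left the members' count at 3. Quantile normalization turned the balance of all genes at an unadjusted p under 0.05 to 494 higher and 584 lower.

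Small differences changed sign. With array weights Serpina12 and Serpina3n were at -0.024 and -0.000449, and Serpinb9 was at -0.0197 after quantile normalization. With a mouse left out, ranges were -0.0104 to 0.118 for Serpina10, -0.165 to 0.284 for Serpina12, -0.0386 to 0.129 for Serpina1b, -0.038 to 0.0884 for Serpina1c, -0.0477 to 0.0775 for Serpina3n, -0.143 to 0.0566 for Serpina6, -0.278 to 0.191 for Serpina7, -0.131 to 0.215 for Serpinb9, -0.0366 to 0.126 for Serping1 and, outside the family, -0.28 to 0.10 for Foxa2, a liver transcription factor. The causes were not tested.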

Other observations

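Serpina4-ps1, a transcribed pseudogene between Serpina12 and Serpina5 in the reference and outside the family as defined, was named after its values were seen. It measured 6.07, 4.33 and 7.04 in WT and 6.25, 7.30 and 8.15 in KO, so WT mouse 2 was again lowest and KO mouse 3 highest. The difference was 1.42 ± 0.66 (SE; limma adjusted p = 0.564), and its pooled SD of 1.18 exceeded that of 99.9% of genes tested.

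Growth hormone and STAT5 axis genes had 10 of 11 members tested, 7 positive and 3 negative. Bcl6, a repressor linked to sex-biased liver expression, measured 6.50, 6.26 and 6.39 in WT and 6.81, 6.88 and 7.25 in KO, a difference of 0.59 ± 0.13 (SE; limma adjusted p = 0.283). Cish, a STAT5 target, measured 4.44, 5.45 and 3.26 in WT and 2.86, 2.80 and 3.07 in KO, at -1.48 ± 0.44 (limma adjusted p = 0.373). KO mice 1 and 2, and the KO mean of 2.91, were under 2.99, the filter on the mean, so Cish entered the tested range through its WT values. The difference of Cish was -0.95 with a pseudocount of 8 and -1.09 as the mean of its 2 probe sets. Cish was at -2.04 without WT mouse 3 (limma adjusted p = 0.0151) and at -0.94 without WT mouse 2 (0.454). Igfbp3 was at 0.43 ± 0.16, or 0.27 without KO mouse 1. Of the 10, 2 had KO wholly above WT and 2 wholly below, these 3 genes included, against 9.63% and 5.16% of all genes tested.

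Markers of other cell types were mostly weak or overlapping. The exceptions were the list means of bile duct (WT 4.29 to 4.65, KO 4.66 to 4.85) and mesothelium (WT 4.81 to 4.86, KO 4.74 to 4.77). In bile duct, KO lay wholly above WT in 1 of 2 tested markers, Sox9, at 0.41 ± 0.14 (SE), against 9.63% of all genes. In mesothelium, KO lay wholly below in 1 of 3, Wt1, at -0.25 ± 0.12, against 5.16%. The groups overlapped in Krt8, at -0.11, and in Upk1b, which went the other way, at 0.10. Median differences were 0.16 for Kupffer cells (9 of 9 tested), -0.03 for sinusoidal endothelium (7 of 7), 0.28 for bile duct (2 of 6), -0.11 for mesothelium (3 of 6), 0.08 for platelets (3 of 5), -0.59 for pancreatic acinar cells (2 of 7, their mean highest in WT mouse 1) and 0.05 for fat (2 of 6). T and NK cells and B and plasma cells had 1 tested marker each. Hepatocyte markers, 6 of 7 tested, were at -0.02.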
